A study of Mus musculus with 4 samples.

Results

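Txnip, the genes of its alpha-arrestin relatives Arrdc1 to Arrdc5, and the genes of the glucose-responsive transcription factors Mlx, Mlxip and Mlxipl were examined by RNA-seq in spermatogonial cultures. The 9 genes were taken by symbol from a table of raw counts for 55421 genes, and each had 1 row. The libraries came from primary spermatogonia (SSC culture) of CD1 mice, started from the testes of 6-day-old pups and kept on irradiated mouse embryonic fibroblast (MEF) feeder cells of another strain, CF1, with GDNF and bFGF in the medium. The Veh cells stayed in the complete medium. Groups follow the sample titles and the treatment label, which separate Veh from NRRA, whereas the protocol field of all 4 samples names NRRA. NRRA cells received, for 2 days, nutrient restriction medium together with retinoic acid (RA). That medium is mostly Earle's balanced salt solution, which holds glucose but no amino acids. The complete medium, which has added glucose, pyruvate and lactate, made up only the small remainder. Its components, GDNF and bFGF among them, were therefore diluted in NRRA, and glucose need not have been equal in the 2 groups. Each group had 2 libraries. Libraries with nutrient restriction alone or RA alone were not analysed here. The effects of RA and of the diluted medium components therefore cannot be told apart here, and RNA of feeder cells was present in every library.

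Alpha-arrestins are adaptor proteins with an arrestin fold. They bind membrane cargo and carry short proline-tyrosine motifs that recruit ubiquitin ligases of the Nedd4 family, so that transporters and receptors are taken up from the cell surface. TXNIP, the best studied of them, also binds thioredoxin and limits its reducing activity, and it lowers glucose uptake. Transcription of Txnip and Arrdc4 is known to follow glucose through MondoA (encoded by Mlxip) and ChREBP (encoded by Mlxipl). Each of these pairs with Mlx, and the dimers bind carbohydrate response elements made of paired E-box-like elements.

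The upstream sequences of the members were inspected first, because the known control of Txnip runs through such elements. RefSeq promoter windows (GRCm38.p6, 250 bases before to 50 bases after a start site) were at hand for all 9 members, 12 windows in all, with more than 1 window for Arrdc3 and Mlxipl. In 4 of the windows a searched motif was found, and the 250 bases upstream of the start are shown for these, 5′ to 3′ on the strand of the gene, with the match in capitals.
Txnip: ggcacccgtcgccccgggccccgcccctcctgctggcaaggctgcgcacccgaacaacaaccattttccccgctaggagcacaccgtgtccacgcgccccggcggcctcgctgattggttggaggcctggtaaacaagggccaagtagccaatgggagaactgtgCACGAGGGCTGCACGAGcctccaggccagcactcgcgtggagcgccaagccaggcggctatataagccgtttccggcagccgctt
Arrdc4: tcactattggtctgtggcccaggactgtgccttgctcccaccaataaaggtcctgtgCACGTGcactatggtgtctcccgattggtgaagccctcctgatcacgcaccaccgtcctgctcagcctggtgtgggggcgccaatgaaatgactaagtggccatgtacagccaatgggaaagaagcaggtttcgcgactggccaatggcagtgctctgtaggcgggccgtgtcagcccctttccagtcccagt
Mlx: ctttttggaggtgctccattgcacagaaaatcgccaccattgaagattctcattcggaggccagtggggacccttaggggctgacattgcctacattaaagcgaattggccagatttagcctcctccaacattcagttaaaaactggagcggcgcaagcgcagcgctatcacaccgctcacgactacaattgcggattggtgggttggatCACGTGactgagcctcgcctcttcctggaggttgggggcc
Mlxipl: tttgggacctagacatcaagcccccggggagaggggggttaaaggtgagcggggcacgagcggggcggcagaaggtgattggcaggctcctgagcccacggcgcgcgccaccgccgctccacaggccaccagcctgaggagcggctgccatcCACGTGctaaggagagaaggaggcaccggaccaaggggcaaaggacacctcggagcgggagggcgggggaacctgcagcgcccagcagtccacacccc

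The Txnip sequence lies at chr3:96557707-96557956 on the plus strand, that of Arrdc4 at chr7:68749239-68749488 on the minus strand, that of Mlx at chr11:101087040-101087289 on the plus strand, and that of Mlxipl, from the more 5′ of its 2 windows, at chr5:135089640-135089889 on the plus strand. Both strands were searched. The capitals in the Txnip sequence are a pair of CACGNG motifs in direct repeat with 5 bases between them, 85 to 69 bases upstream of the start. Such a pair occurred in 16 of 32851 windows of the same length (0.0487%). Those windows belong to 15 genes, of which 12 were tested for expression, with 5 higher and 3 lower in NRRA, Txnip among the latter, and a median log2 fold change of 0.044. Of all genes tested, 27.9% were higher, 28.4% lower and 56.4% called either way. Arrdc4, Mlx and Mlxipl instead held the E-box CACGTG, itself a form of CACGNG, which was present in 7.15% of all windows, 193, 40 and 98 bases upstream of the start respectively. The strict carbohydrate response element consensus (0.119% of all windows) and the DR5 retinoic acid response element (0.323%) were found in no window of the 9 members. A match describes letters in a window and is no evidence of binding. Control of Txnip through paired elements was known before the search, so the match in its window is no independent observation.

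The libraries held between 28022265 and 31604769 counts, and 3 counts corresponded to between 0.0949 and 0.107 CPM (counts scaled to a common library total). Of 20232 genes that passed the filter on low counts, 5654 were higher and 5752 lower in NRRA (quasi-likelihood test of edgeR, with p adjusted by Benjamini-Hochberg and a threshold of 0.05), so that 49.6% of the calls were higher. With library size only, 60.3% were. According to the study's reporting summary the replicates of its sequencing experiments were independent, while the labels name no separate cultures. The spread between replicates was small (biological coefficient of variation 2.61%). Intervals cover the spread in the fit, and PCR copies were not told apart.

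All members except Arrdc5 passed the filter, each with at least 287 counts in every library. Of these 8 genes, 6 passed the test, beside 56.4% of all genes tested. In NRRA 4 were higher and 2 were lower, beside 27.9% and 28.4% of all genes tested. Txnip and Arrdc4 fell, Arrdc1, Arrdc2, Mlxip and Mlxipl rose, and Arrdc3 and Mlx did not pass the test. The call of Arrdc2 was lost with DESeq2, without Veh replicate 2 and without NRRA replicate 2, which left 3 members higher. The NRRA and Veh libraries did not overlap in CPM for the 6 called genes and overlapped for the other 2. Over all genes tested, 76.7% did not overlap. That last count of members was near the background, and the description rests on the single genes.

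**Figure D1:**
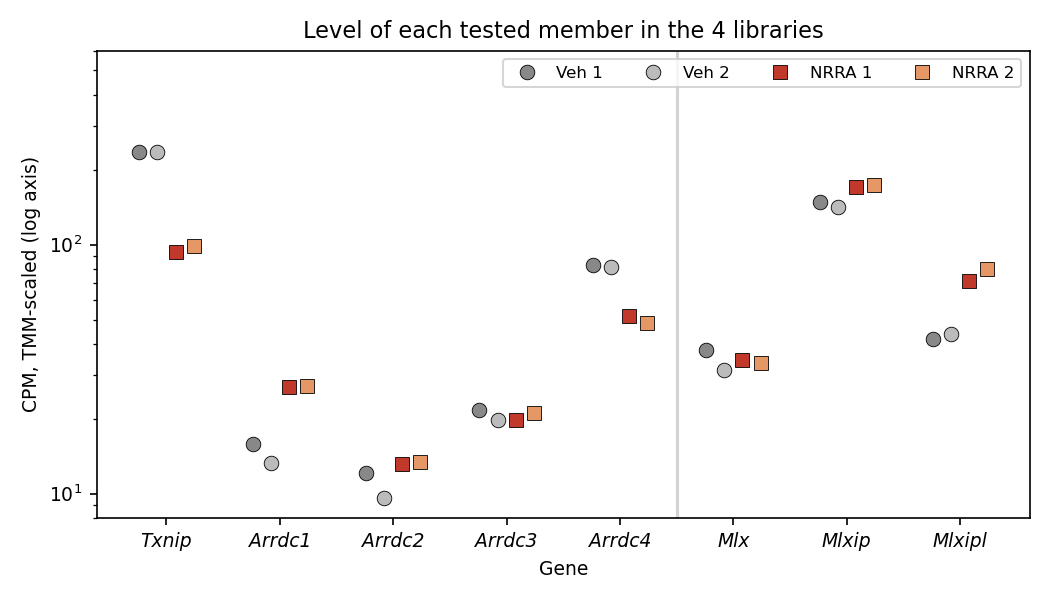
Level of the 8 tested members in each library, in TMM-scaled CPM on a log axis, with Veh libraries as grey circles and NRRA libraries as coloured squares. Txnip dropped from 234 and 236 CPM to 93.7 and 98.8 CPM, whereas both NRRA libraries lay above both Veh libraries for Arrdc1, Mlxip and Mlxipl.

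Txnip (ENSMUSG00000038393, GRCm38 chromosome 3, 96557957 to 96561883, plus strand) was the most abundant alpha-arrestin transcript. It measured 234 and 236 CPM in the Veh libraries and 93.7 and 98.8 CPM in the NRRA libraries. The 2 libraries of each group nearly coincided, and the groups were far apart. The means were 235 ± 1.09 CPM in Veh, against 96.2 ± 3.61 CPM in the NRRA libraries (± SD, n = 2 in each group), which is a log2 fold change of -1.29 with an SE of 0.034 (adjusted p 2.80e-21, edgeR), or 2.44-fold lower. Only 5.17% of the genes tested had a lower log2 fold change. In these bulk samples, fewer cells of a type and less RNA per cell cannot be told apart.

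Arrdc4 (ENSMUSG00000042659, chromosome 7, 68736995 to 68749241, minus strand), an alpha-arrestin that like TXNIP acts on glucose uptake, moved the same way. It measured 82.6 and 81.4 CPM in Veh, against 51.5 and 48.2 CPM in the NRRA libraries. All NRRA values lay below all Veh values by much more than the gap between replicates. The means were 82.0 ± 0.868 and 49.8 ± 2.28 CPM (± SD, n = 2 in each group), which is a log2 fold change of -0.72 with an SE of 0.047 (adjusted p 7.87e-13, edgeR). Of the genes tested, 11.5% had a lower log2 fold change. The 95% interval of its log2 fold change, from -0.81 to -0.62, lay apart from that of Txnip, from -1.36 to -1.22. Per kilobase of exon, the level of Txnip was 3.67 and 3.75 times that of Arrdc4 under Veh, against 2.35 and 2.65 times under NRRA.

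Markers of the cell types that the cultures could hold moved beside these genes. Of 10 germ cell markers, all tested, 5 were higher and 4 lower, beside 27.9% higher and 28.4% lower over all genes tested. Their summed share of the counts was 0.243% and 0.250% in Veh, against 0.257% in each library of NRRA. That steady sum covered large moves in both directions. Zbtb16, a factor of undifferentiated spermatogonia, went from 441 and 443 CPM in Veh to 82.1 and 81.4 CPM in NRRA (log2 fold change -2.43, adjusted p 3.85e-28 in edgeR), and Sohlh1, a factor of differentiating spermatogonia, from 52.4 and 52.2 CPM to 98.8 and 102 CPM (0.94, adjusted p 5.16e-16 in edgeR). Of 16 fibroblast markers, which mark the MEF feeders, 13 were lower and 2 higher, beside 28.4% lower and 27.9% higher over all genes tested. Their median log2 fold change was -0.22, against 0.00029 over all genes tested. Together they took 0.945% and 0.934% of the counts in Veh and 0.790% and 0.771% in NRRA. Most of the fall in that share was in Fn1, which encodes fibronectin. Without Fn1, left out after its values were seen, the other 15 markers took 0.351% and 0.345% in Veh and 0.340% and 0.322% in NRRA, and 12 were lower and 2 higher. They ranged from Lum, a collagen-binding proteoglycan (-1.43), to Pdgfra, a growth factor receptor (0.98).

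Other somatic cells of the testis were represented by fewer counts. The numbers of called markers below stand beside 27.9% higher and 28.4% lower over all genes tested. Of 7 Sertoli cell markers 4 were tested and 1 was lower, the transcription factor Sox9, with 27.1 and 29.4 CPM in Veh and 9.33 and 9.43 CPM in NRRA (log2 fold change -1.59, adjusted p 1.33e-14 in edgeR). The Sertoli markers Fshr and Amh were at 0 and at most 0.101 CPM in all libraries, whereas Wt1 was detected with 178 and 233 Veh counts against 189 and 182 and did not pass the test (log2 fold change -0.28, adjusted p 0.0826 in edgeR). Of 6 macrophage markers 4 were tested and 1 was lower, Cd68, a lysosomal protein (-0.86, adjusted p 3.51e-06 in edgeR), and the highest of them reached 20.8 CPM. Of 6 Leydig cell markers 2 were tested and 1 was higher, Star, which carries cholesterol into mitochondria (0.31, adjusted p 0.0317 in edgeR), and none exceeded 8.78 CPM. The part of germ, feeder, Sertoli, Leydig or macrophage cells in the values of the members was not tested.

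An annotated antisense transcript, Gm15441, covers 19.4% of the exonic bases of Txnip on the opposite strand. Its levels were 55.2 and 61.3 CPM in Veh, against 24.1 and 24.3 CPM in the NRRA libraries, which is a log2 fold change of -1.27 with an SE of 0.062 (adjusted p 1.61e-15, edgeR). It fell along with Txnip: for each Txnip count there were 0.236 and 0.26 Gm15441 counts under Veh, against 0.258 and 0.246 under NRRA. According to the study's methods the libraries were prepared to keep strand, while the labels name a different kit. The strand setting of the counting was not given in the sources used here. Reads of the 2 genes over the shared bases therefore may not have been told apart.

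The 5 genes whose log2 CPM profile over the 4 libraries lay nearest to that of Txnip, each profile centred on its own mean, were Mical2, Gstp1, Slc16a13, Nav1 and Inhbb. Their Euclidean distances from Txnip were 0.020, 0.022, 0.039, 0.047 and 0.050 on the log2 scale. Mical2 encodes an actin-oxidizing enzyme, Gstp1 a glutathione transferase, Slc16a13 a carrier of the monocarboxylate transporter family, Nav1 a microtubule-associated protein and Inhbb a subunit of activin and inhibin. Gstp1 is uncertain because it has a near-identical neighbour, Gstp2. Of 11325 other genes whose log2 CPM averaged 3 or more, 30 lay within a distance of 0.1. With 4 libraries in 2 groups such likeness says little more than a fold change of the same size.

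Arrdc1 (ENSMUSG00000026972, chromosome 2, 24925352 to 24935252, minus strand), which drives the budding of small vesicles from the plasma membrane, rose. It measured 15.9 and 13.3 CPM in Veh, against 26.7 and 27.0 CPM in the NRRA libraries. The Veh libraries differed from each other more than the NRRA libraries did, but both were well below them. The means were 14.6 ± 1.82 and 26.9 ± 0.207 CPM (± SD, n = 2 in each group), which is a log2 fold change of 0.89 with an SE of 0.084 (adjusted p 1.02e-09, edgeR), and 91.8% of the genes tested had a lower log2 fold change.

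Arrdc2 (ENSMUSG00000002910, chromosome 8, 70835129 to 70839720, minus strand) was weakly higher. Its levels were 12.1 and 9.65 CPM in Veh, against 13.2 and 13.5 CPM in the NRRA libraries. The higher Veh library lay close to the NRRA libraries, and Veh replicate 2 lay below the other 3. The log2 fold change was 0.29 with an SE of 0.11 (adjusted p 0.024, edgeR). The call was lost without Veh replicate 2 (log2 fold change 0.13, adjusted p 0.386 in edgeR), without NRRA replicate 2 (0.28, adjusted p 0.0749 in edgeR) and with DESeq2 (0.30, DESeq2 adjusted p 0.167), and without Veh replicate 1 the value was 0.46. Over all alternatives the adjusted p ranged from 0.00091 to 0.386.

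Arrdc3 (ENSMUSG00000074794, chromosome 13, 80883384 to 80896042, plus strand), an adaptor for beta-adrenergic receptors, showed no detectable difference. It had 588 and 586 counts in Veh against 645 and 632 in the NRRA libraries, and after scaling the means were 20.7 ± 1.40 and 20.4 ± 0.841 CPM (± SD, n = 2 in each group). The NRRA values lay between the Veh values. The log2 fold change was -0.02 with a 95% interval from -0.18 to 0.14 (adjusted p 0.859 in edgeR), and its sign flipped to 0.070 with library size only, to 0.049 without Veh replicate 1 and to 0.027 without NRRA replicate 1.

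Arrdc5 (ENSMUSG00000073380, chromosome 17, 56294111 to 56300286, minus strand), which is known for its expression in the testis and its need in sperm formation, was hardly detected. It had 1 and 0 Veh counts against 1 and 2 in the NRRA libraries, and all 4 values were under 3 counts. A difference was not detectable at this depth, and no fold change was computed.

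The levels of different members can be compared only per length. In CPM per kilobase of exon, Veh cultures held 75.3 ± 0.351 of Txnip, 20.3 ± 0.215 of Arrdc4, 5.80 ± 0.727 of Arrdc1, 3.37 ± 0.544 of Arrdc2 and 3.30 ± 0.224 of Arrdc3 (SD, n = 2). Arrdc2 and Arrdc3 did not differ beyond their spread. In NRRA the order was the same, with 30.8 ± 1.16, 12.3 ± 0.565, 10.7 ± 0.0824, 4.12 ± 0.0614 and 3.26 ± 0.134 (SD, n = 2), but Arrdc4 and Arrdc1 had drawn close and Arrdc2 stood above Arrdc3. Summed over the 6 alpha-arrestins, the level per kilobase was 109 and 107 under Veh, against 60.6 and 61.9 under NRRA. Txnip made up 68.8% and 70.5% of that sum in Veh and 49.5% and 51.1% in NRRA, while the share of Arrdc1 was 5.79% and 4.94% in Veh and 17.5% and 17.4% in NRRA. These are shares within a sum that shrank, and they move with each other.

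**Figure D2:**
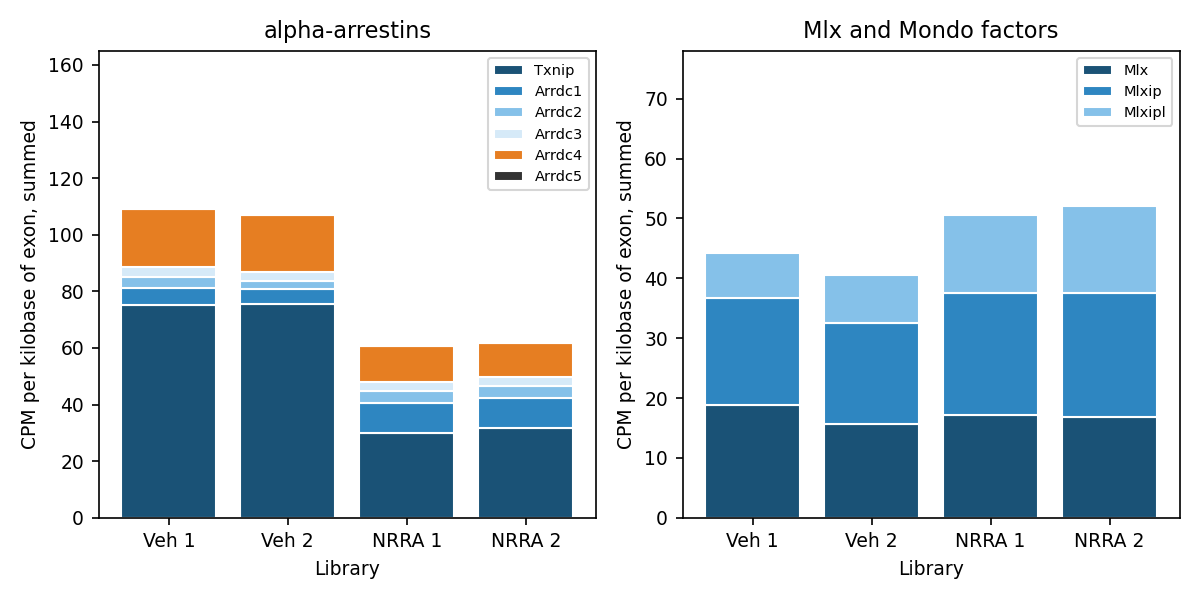
Summed level of the alpha-arrestins and of the Mlx and Mondo factors in each library, in CPM per kilobase of exon, with 1 segment per gene. The alpha-arrestin sum was 109 and 107 in Veh and 60.6 and 61.9 in NRRA, with a much shorter Txnip segment, whereas the sum of Mlx, Mlxip and Mlxipl was 44.2 and 40.5 in Veh and 50.5 and 52.0 in NRRA.

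The transcripts of the glucose-sensing factors did not fall with Txnip. Mlxipl, which encodes ChREBP (ENSMUSG00000005373, chromosome 5, 135089890 to 135138382, plus strand), measured 42.0 and 44.0 CPM in Veh, against 71.5 and 79.9 CPM in the NRRA libraries. Every NRRA value was far above every Veh value. The means were 43.0 ± 1.41 and 75.7 ± 5.90 CPM (± SD, n = 2 in each group), which is a log2 fold change of 0.81 with an SE of 0.054 (adjusted p 1.06e-12, edgeR), or 1.76-fold higher. Of the genes tested, 90.6% had a lower log2 fold change. Gm43500 on the opposite strand covers 4.24% of its exonic bases and had 9 and 13 Veh counts against 21 and 8. Counts per gene do not separate the 2 RefSeq start sites of Mlxipl.

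Mlxip, which encodes MondoA (ENSMUSG00000038342, chromosome 5, 123394798 to 123457932, plus strand), rose by a small amount. It measured 149 and 141 CPM in Veh, against 170 and 173 CPM in the NRRA libraries. The groups did not overlap, and the gap between them was wider than the gap between the 2 Veh libraries. The log2 fold change was 0.25 with an SE of 0.033 (adjusted p 5.83e-07, edgeR). Gm15747 on the opposite strand covers 3.21% of its exonic bases and had a log2 fold change of 0.38 (adjusted p 0.0734 in edgeR). Per kilobase, the level of Mlxip was 2.35 and 2.14 times that of Mlxipl under Veh, against 1.58 and 1.44 times under NRRA.

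Mlx, the shared partner of both (ENSMUSG00000017801, chromosome 11, 101087277 to 101092207, plus strand), did not pass the test. It measured 37.6 and 31.3 CPM in Veh, against 34.3 and 33.5 CPM in the NRRA libraries, and the NRRA values lay between the Veh values. The log2 fold change was -0.02, with a 95% interval from -0.16 to 0.13 (adjusted p 0.854 in edgeR), and the sign flipped to 0.072 with library size only and to 0.12 without Veh replicate 1. Psmc3ip on the opposite strand covers 19.3% of its exonic bases, and had 736, 824, 882 and 798 counts in Veh replicates 1 and 2 and NRRA replicates 1 and 2. The level of Mlx is uncertain if strand was not used in the counting. Per kilobase, Mlx (17.2 ± 2.25) and Mlxip (17.4 ± 0.611) did not differ beyond their spread in Veh (SD, n = 2), and in NRRA they were at 17.0 ± 0.265 and 20.6 ± 0.279 (SD, n = 2).

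**Figure D3:**
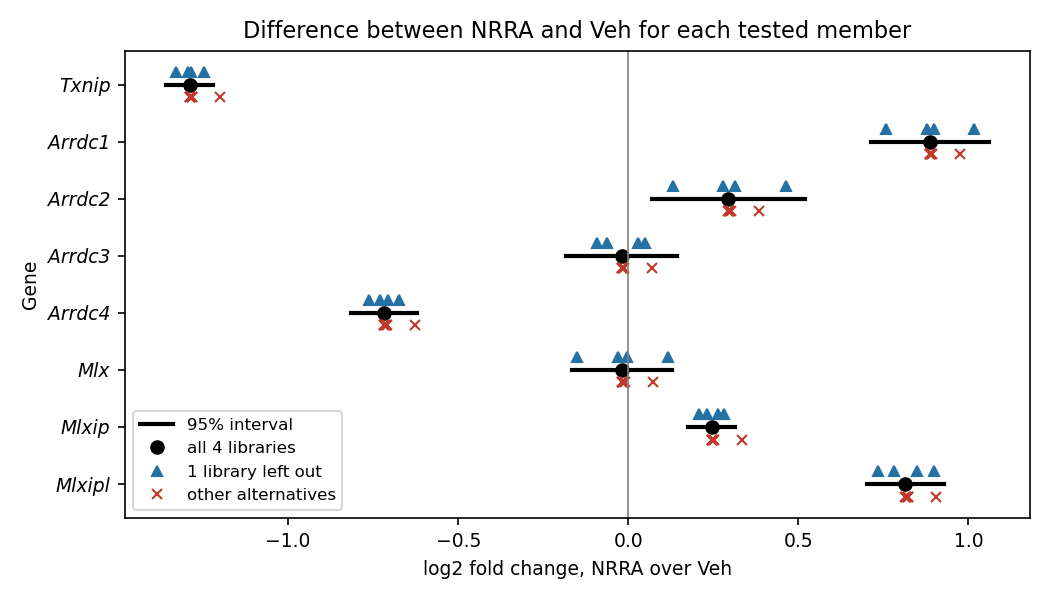
Log2 fold change of NRRA over Veh for the 8 tested members, with the 95% interval of the fit to all 4 libraries (black), the values with 1 library left out (blue triangles) and the values under the other alternatives (red crosses). Txnip and Arrdc4 stayed below 0 and Arrdc1, Arrdc2, Mlxip and Mlxipl above 0 throughout, while Arrdc3 and Mlx fell on both sides of 0.

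Max, the common partner of the wider network of dimerizing factors that Mlx belongs to, was among the genes that fell. Of 10 such partners, 3 were higher, 3 lower and 4 did not pass the test, close to the 27.9% higher and 28.4% lower over all genes tested, with a median log2 fold change of -0.02 that was 0.067 with library size only. Max had a value of -0.59 with an SE of 0.047 (adjusted p 3.42e-11, edgeR). The values ran from Mycn, a growth-promoting Myc protein (-2.91, 104 and 100 CPM in Veh against 13.4 and 13.8 CPM in the NRRA libraries), to Mxd1, a repressor that can pair with Max and with Mlx (1.18, 8.26 and 9.48 CPM in Veh against 19.8 and 20.4 CPM in the NRRA libraries). Max, Txn1, Itch and Slc2a1 are outside the naming rule and were named after their values were seen, because textbooks tie them directly to the members, and Fshr, Amh, Wt1 and Fn1 were likewise named after their values were seen.

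Other known targets of ChREBP and MondoA moved both ways. Of 16 listed genes, 13 were tested, and 7 were higher and 6 lower, so that all were called beside 56.4% over all genes tested, with a median log2 fold change of 0.22. The values ranged from that of Pnpla3, a lipid droplet enzyme (1.19, adjusted p 0.0261 in edgeR), down to that of Fgf21, a metabolic hormone. Both rest on few counts. For Pnpla3, 9 and 12 Veh counts stood against 22 and 31 from the NRRA libraries. For Fgf21, 13 and 12 Veh counts stood against 1 and 0, a ratio of 0.036 (95% exact interval from 0.00088 to 0.222, for counting error only). The median of the list was -0.041 without the filter on low counts.

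Most genes of the thioredoxin system fell, with 7 of 10 lower and 2 higher, beside 28.4% lower and 27.9% higher over all genes tested. The median log2 fold change was -0.23, and -0.14 with library size only. Txn1, which encodes the cytosolic thioredoxin that TXNIP binds, measured 76.7 and 76.2 CPM in Veh, against 48.5 and 49.3 CPM in the NRRA libraries, which is a log2 fold change of -0.64 with an SE of 0.046 (adjusted p 4.74e-12, edgeR). The lowest value of the list was that of Txnrd1, the cytosolic thioredoxin reductase (-0.79, SE 0.027), and the highest that of Txnrd3, a reductase of the testis (0.49, SE 0.052). Thus the transcripts of Txnip and of its binding partner were both lower in NRRA.

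Ligases of the Nedd4 family, which alpha-arrestins recruit, were called in both directions. Of 11 ligases and adaptors 4 were higher and 5 lower, beside 27.9% and 28.4% over all genes tested, with a median log2 fold change of -0.04 that was 0.048 with library size only. Itch, a ligase that ubiquitinates TXNIP, had a log2 fold change of 0.17 with an SE of 0.044 (adjusted p 0.00191, edgeR). The extremes were Hecw1 (-1.35, 22 and 20 Veh counts against 8 and 10) and Hecw2 (0.66, adjusted p 6.37e-06 in edgeR).

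Facilitative glucose transporters, some of which are cargo of TXNIP, were called in both directions. Of 12 genes 4 were higher, 4 lower and 4 did not pass the test, not far from the 27.9% higher and 28.4% lower over all genes tested, with a median log2 fold change of -0.08 that was 0.061 without Veh replicate 1 and 0.0092 with library size only. Slc2a1, which encodes GLUT1, fell slightly, from 62.5 and 63.1 CPM in Veh to 55.8 and 56.1 CPM in the NRRA libraries (log2 fold change -0.17, SE 0.047, adjusted p 0.00359 in edgeR). Slc2a3, which encodes the high-affinity transporter GLUT3, measured 26.1 and 29.5 CPM in Veh, against 13.3 and 12.2 CPM in the NRRA libraries (-1.13, SE 0.085, adjusted p 1.24e-11 in edgeR). Slc2a4, which encodes the insulin-responsive transporter GLUT4, had the highest value of the list, 20 and 34 Veh counts against 113 and 98 (1.82, SE 0.25, adjusted p 7.68e-07 in edgeR).

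**Figure D4:**
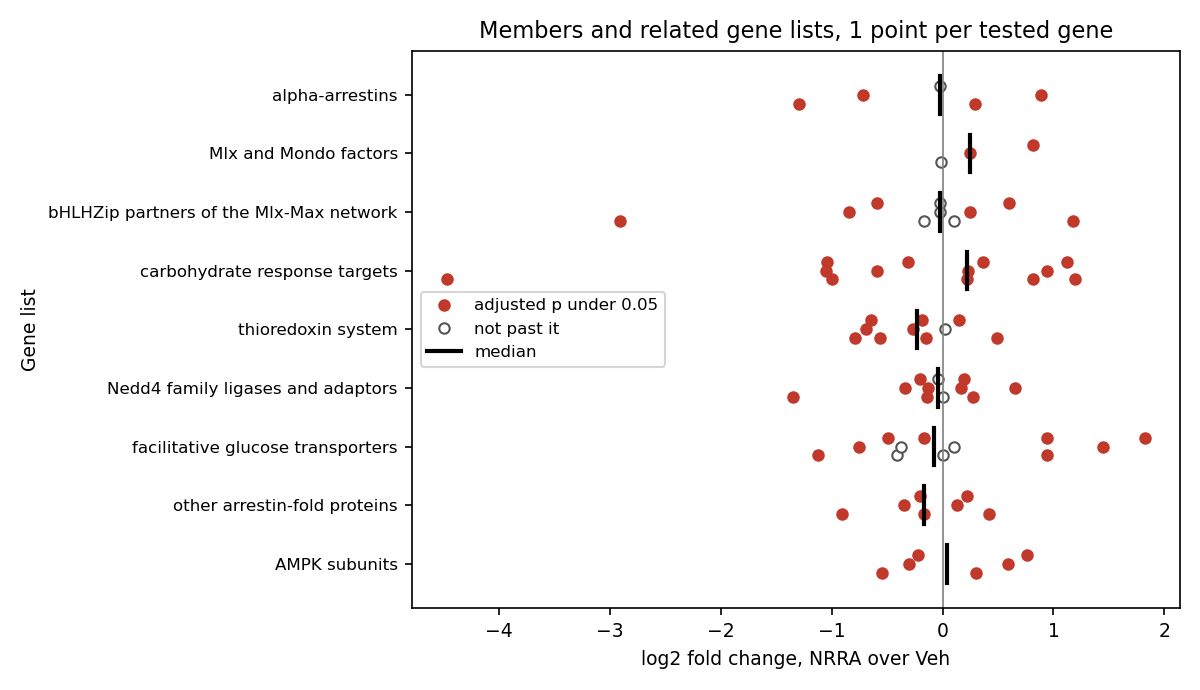
Log2 fold change of NRRA over Veh for every tested gene of the 2 member families and of the related lists, with filled points for adjusted p under 0.05 and a bar at the median. The thioredoxin list has 7 of 10 genes lower. Every list has called genes on both sides of 0, except that Mlx and the Mondo factors have 2 called genes and both are higher.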

How the data were processed

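Poly(A) RNA of 2 Veh and 2 NRRA libraries was sequenced with paired-end reads. The authors deposited raw counts per gene. Per the labels, the processing notes name STAR 2.6.1c, featureCounts 1.6.4 and the build mm10. The annotation release and strand setting were not given in the sources used here. Columns were matched to samples by their descriptions, which number the Veh libraries 2 and 3 where the titles say 1 and 2.

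Counts were filtered with filterByExpr, scaled with TMM and compared with a robust quasi-likelihood F test in edgeR 4.0.16 (R 4.3.3), adjusted by Benjamini-Hochberg over 20232 genes at 0.05. The SE came from the F statistic. The script was tested on simulated data. CPM per kilobase used the merged exons of GENCODE M21 (GRCm38). Overlap with other genes was read from the same annotation. DESeq2 1.42.0, other scalings and filters, a replicate block and each library left out were the alternatives. A fit with 1 library in a group assumes that it varies like the others.

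The text names the 9 members, the highest and lowest called gene of each related list and marker list, the 5 nearest profiles to Txnip, and genes whose reads could be confused with those of a member. Exceptions are given in the text. Members and lists were chosen with earlier results of these data known. Protein sequences were not analysed here.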

Additional observations from a re-analysis of the deposited data

How the results depend on the processing

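Txnip, Arrdc1, Arrdc4, Mlxip and Mlxipl kept their direction and their call under all 10 alternatives. Txnip ranged from -1.33 to -1.20, Arrdc4 from -0.76 to -0.63, Arrdc1 from 0.76 to 1.02, Mlxip from 0.21 to 0.34 and Mlxipl from 0.73 to 0.90 in log2 fold change. Arrdc2 ranged from 0.13 to 0.46 with 1 library left out and was 0.30 with DESeq2, where its call was lost. Arrdc3 ranged from -0.090 to 0.049 and Mlx from -0.15 to 0.12 with 1 library left out, and with library size only they were 0.070 and 0.072. Arrdc5 had no test. Between 3 and 4 members were higher and 2 lower under every alternative. Over the whole table, between 4267 and 6962 genes were higher and between 4317 and 5836 lower.

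With library size only, the list medians were 0.067 for the Mlx-Max partners, 0.31 for the carbohydrate response targets, -0.14 for the thioredoxin system, 0.048 for the Nedd4 family, -0.082 for the other arrestin-fold genes and 0.13 for AMPK subunits. Without the filter on low counts they were -0.041 for the carbohydrate response targets and 0.31 for AMPK subunits, since genes of few counts then entered. With 1 library left out, the medians ranged from -0.039 to -0.0016 for the Mlx-Max partners, from 0.15 to 0.24 for the carbohydrate response targets, from -0.10 to -0.022 for the Nedd4 family, from -0.11 to 0.061 for the glucose transporters, from -0.20 to -0.12 for the other arrestin-fold genes, from -0.24 to -0.21 for the thioredoxin system and from 0.019 (without Veh replicate 2) to 0.059 for AMPK subunits.

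The replicate numbers gave no sign of pairing (correlation of same-numbered deviations -0.011). With the replicate block 5772 genes were higher and 5836 lower, and no call among the members changed.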

Other observations

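Other proteins with an arrestin fold and the subunits of AMPK, the energy sensor whose kinase activity reaches both TXNIP and ChREBP, were listed alongside. Of 8 arrestin-fold genes other than the alpha-arrestins, 7 were tested. Of these, 3 were higher and 4 lower, beside 27.9% and 28.4% over all genes tested. The 7 genes had a median log2 fold change of -0.17, which was -0.082 with library size only. They ran from Sag, a visual arrestin with few counts (-0.91, 25 and 35 Veh counts against 17 and 18, adjusted p 0.048 in edgeR), to Arrb1, a beta-arrestin (0.42, 111 and 147 Veh counts against 202 and 178, adjusted p 0.0194 in edgeR).

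Of 7 AMPK subunit genes, 6 were tested, and 3 were higher and 3 lower, beside the same shares. Their median log2 fold change was 0.041, against 0.13 with library size only and 0.31 without the filter on low counts. Prkag2, a regulatory gamma subunit, had a log2 fold change of 0.76 with an SE of 0.056 (adjusted p 7.58e-12, edgeR), and Prkab1, a scaffold beta subunit, had -0.55 with an SE of 0.056 (adjusted p 3.61e-09, edgeR).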
